A study of Homo sapiens with 3 samples.

Results

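The genes described here belong to the Notch pathway, and the data are the long-range chromosomal contacts of their promoters in cardiomyocytes made from human embryonic stem cells (hESC-CMs). Notch is a signalling route between neighbouring cells. A ligand of the Jagged or Delta-like family on one cell binds a NOTCH receptor on the next, the receptor is cut, and its inner part enters the nucleus, where it joins the DNA-binding protein RBPJ and switches on target genes of the HES and HEY families. In the heart the pathway is known for its part in valve, trabecula and vessel formation, and HEY2 is known as a gene of the compact ventricular wall.

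The 10 genes were the receptors NOTCH1, NOTCH2 and NOTCH3, the ligands JAG1, JAG2 and DLL4, and the targets HEY1, HEY2, HEYL and HES1. Their members in the data were found by position: a promoter fragment was a HindIII restriction fragment listed as a captured end of a call and holding an annotated transcript start of one of these genes. Of the 10 genes, 9 had 1 such fragment each, out of 19075 promoter fragments with a call in any replicate. NOTCH2 had none. All contacts of the 9 fragments were taken, 178 of 200587 interactions over the 3 replicates together.

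The study used promoter capture Hi-C (PCHi-C), which ligates DNA fragments that lie close together in fixed nuclei and then enriches for ligations that involve promoters. The 3 samples were biological replicates of 1 condition. The cells came from the H9 (WA09) embryonic stem cell line at passage 32, were differentiated with a commercial cardiomyocyte kit, were enriched in medium without glucose containing 4 mM lactate, and were fixed in 2% formaldehyde for 10 min. No untreated, undifferentiated or other control group was compared, and all samples share 1 cell line, so the spread between replicates is that of repeated differentiations or libraries and not of donors. The calls hold no expression values, so cardiomyocyte identity could not be checked against marker genes here.

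Each interaction carried a CHiCAGO score in each replicate that called it. The score weighs the ligations between 2 fragments against the number expected at that distance, and calls start at 5. It is not a read count or a contact frequency, and an interaction absent from a replicate may have had any score under 5. The 3 replicates held 112473, 109731 and 110740 calls, with median scores of 6.63, 6.64 and 6.65, and the number of reads behind each score is not known from these files. A partner fragment is called a promoter-interacting region (PIR), distances are between fragment midpoints, and coordinates are those of GRCh37.

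The promoter windows of 3 targets are shown because they hold the letters of the RBPJ recognition motif, GTGGGAA, on either strand. The windows are 300 bases long, from 250 before to 50 after a RefSeq transcript start (GRCh38.p14 table), each was found once in GRCh37 inside its own promoter fragment, and capitals mark the motif. The HEY2 window lies at chr6:126070528-126070827 on the plus strand and holds 2 matches, starting at bases 38 and 247 of the window. The HES1 window lies at chr3:193853687-193853986 on the plus strand and holds 1, at base 166. The HEYL window lies at chr1:40105266-40105565 on the minus strand and holds 1, at base 73.
HEY2 promoter: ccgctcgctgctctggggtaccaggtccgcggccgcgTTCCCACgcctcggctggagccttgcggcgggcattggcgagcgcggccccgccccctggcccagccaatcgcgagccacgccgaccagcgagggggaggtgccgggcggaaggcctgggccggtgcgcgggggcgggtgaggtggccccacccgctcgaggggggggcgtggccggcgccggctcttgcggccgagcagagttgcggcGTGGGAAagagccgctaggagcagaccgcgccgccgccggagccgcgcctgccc
HES1 promoter: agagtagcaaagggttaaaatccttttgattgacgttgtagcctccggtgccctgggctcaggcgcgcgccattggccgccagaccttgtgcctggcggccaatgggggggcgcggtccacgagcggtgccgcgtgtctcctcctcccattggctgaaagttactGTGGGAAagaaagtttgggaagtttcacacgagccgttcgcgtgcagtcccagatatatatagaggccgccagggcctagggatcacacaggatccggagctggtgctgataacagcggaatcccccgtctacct
HEYL promoter: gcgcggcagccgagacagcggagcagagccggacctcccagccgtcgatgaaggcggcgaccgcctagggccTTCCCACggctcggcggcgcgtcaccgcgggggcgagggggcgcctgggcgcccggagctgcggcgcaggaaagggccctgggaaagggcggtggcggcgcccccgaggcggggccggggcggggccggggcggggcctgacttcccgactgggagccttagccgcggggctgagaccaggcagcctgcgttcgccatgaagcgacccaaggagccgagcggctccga
The windows of NOTCH1, NOTCH2, NOTCH3, JAG1, JAG2 and DLL4 held no match to this motif. Over 35116 promoter windows of the same length, 6.25% held it. The E-box CACGTG, which HES and HEY proteins are known to bind, was in none of these 9 windows and in 7.26% of all. The GATA motif AGATAA was also in none of the 9, against 10.3% of all. The HEY1 promoter was not searched.

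The sequences of the strongest PIRs of HES1 and JAG1 are shown next, since results below turn on them. For HES1 the strongest PIR is a whole fragment of 229 bases, chr3:193502601-193502829. For JAG1 the 300 bases in the middle of the strongest PIR are given, at chr20:11253225-11253524. Both are on the plus strand of GRCh37, and capitals would mark a match to any of the 3 motifs.
HES1 PIR: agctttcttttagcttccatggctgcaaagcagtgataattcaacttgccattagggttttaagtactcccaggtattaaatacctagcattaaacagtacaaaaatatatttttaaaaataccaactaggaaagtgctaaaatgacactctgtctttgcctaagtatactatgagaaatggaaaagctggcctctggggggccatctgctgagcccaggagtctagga
JAG1 PIR: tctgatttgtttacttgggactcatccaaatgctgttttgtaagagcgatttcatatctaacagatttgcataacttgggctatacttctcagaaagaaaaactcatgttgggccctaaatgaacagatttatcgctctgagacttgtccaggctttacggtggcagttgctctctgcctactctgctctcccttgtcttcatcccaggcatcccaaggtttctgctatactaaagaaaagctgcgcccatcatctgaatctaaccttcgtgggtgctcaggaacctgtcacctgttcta
No match was found in either window, though the whole JAG1 PIR held AGATAA 2 times. The whole strongest PIRs of NOTCH3 and JAG2, which are longer and are not printed, held 1 and 1 match to GTGGGAA, 1 and 3 to CACGTG, and 3 and 0 to AGATAA. The last motif was in 19.6% of the 33883 middle windows of 300 bases from PIRs of interactions called in all 3 replicates. GTGGGAA was in 5.49% of those windows and CACGTG in 3.13%. Among windows of 229 bases the shares were 15.4% for AGATAA, 4.17% for GTGGGAA and 2.41% for CACGTG. These are letter matches only, and binding was not measured. The window shares do not apply to the whole PIRs of JAG1 (2087 bases), NOTCH3 (7918 bases) and JAG2 (9691 bases). Shares for whole PIRs were not computed.

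The 9 promoters differed widely in how many contacts were called. JAG1, a ligand, had 42, 38 and 43 interactions in replicates 1, 2 and 3, the highest count in each replicate. HEY2 followed with 23, 26 and 28. JAG2, another ligand, had 22, 12 and 22, so replicate 2 stood well below the other two for this gene. HES1 had 17, 14 and 15, and HEY1, a target gene related to HEY2, had 11, 13 and 11. NOTCH3 had 7, 6 and 7. NOTCH1 had 2, 1 and 2, HEYL had 0, 3 and 0, and DLL4, a ligand best known from blood vessels, had 1, 1 and 0. The ranges over replicates did not overlap between JAG1 and HEY2, HEY2 and JAG2, HES1 and HEY1, HEY1 and NOTCH3, or NOTCH3 and NOTCH1. They overlapped between JAG2 and HES1, NOTCH1 and HEYL, and HEYL and DLL4. Over all 9 fragments the count was 122.3 ± 7.37 per replicate (SD, n = 3). The median over all promoter fragments was 6 interactions over the 3 replicates together. JAG1 had 51, more than 97.5% of promoter fragments, and JAG2 and HEY2 had 35 and 34, more than 94.0% and 93.6%. HES1 had 21, HEY1 15 and NOTCH3 14, and NOTCH1, HEYL and DLL4 had 4, 3 and 1.

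**Figure D1:**
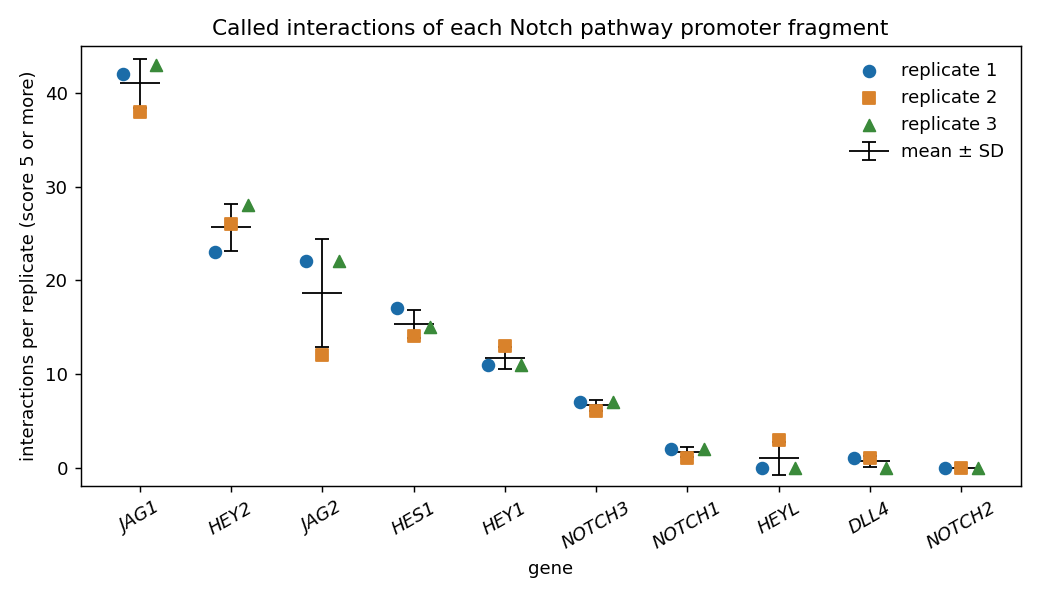
Number of interactions called for the promoter fragment of each gene (y axis) in each of the 3 replicates (circles, squares and triangles), with genes on the x axis in order of their mean; horizontal bars are means and whiskers 1 SD. JAG1 sits between 38 and 43, HEY2 between 23 and 28, and JAG2 spreads from 12 to 22.

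Agreement between replicates was also uneven. Of the 178 interactions, 77 were called in all 3 replicates, 43.3% (95% Wilson interval 36.2 to 50.6), beside 24% of all interactions in the series. Calls in exactly 2 replicates numbered 35, and those in a single one 66. JAG1 and HEY2 supplied 53 of the 77. JAG1 had 33 of 51 in all 3 replicates (64.7%, 51.0 to 76.4) and HEY2 20 of 34 (58.8%, 42.2 to 73.6). HEY1 had 8 of 15 and HES1 10 of 21. JAG2 had 4 of 35 and NOTCH3 2 of 14, which were the lowest shares among genes with any. Without JAG1 and HEY2, 24 of 93 interactions were in all 3 replicates, 25.8% (18.0 to 35.5), a share near that of the series. The intervals cover counting error only, and neighbouring PIRs of 1 promoter are not independent. NOTCH1, DLL4 and HEYL had no interaction in all 3 replicates, so 6 of the 9 promoters had one, beside 51.9% of all promoter fragments.

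**Figure D2:**
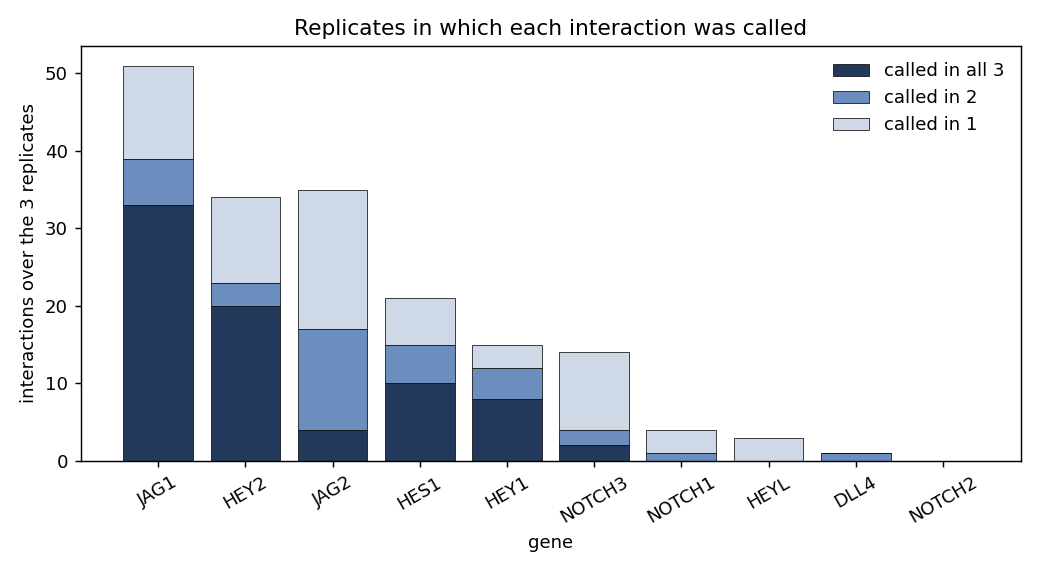
Interactions of each gene over the 3 replicates together (y axis), split by the number of replicates that called them: dark, all 3; medium, 2; light, 1. JAG1 and HEY2 are mostly dark with 33 and 20 interactions in all 3, whereas JAG2 has 35 interactions of which 4 are dark.

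The same genes carried the high scores. The top 20% of all interactions was taken by the score summed over replicates, which put the threshold at 20.0 and the share of the series at 20% by construction. A replicate without a call added nothing to the sum. Membership therefore depends largely on calls in all 3 replicates and is not independent of the agreement described above. Of the members' interactions 64 lay in it, 36.0% (29.3 to 43.2). JAG1 had 29 of these, HEY2 18, HES1 8, HEY1 6, JAG2 2 and NOTCH3 1. Without JAG1 and HEY2 the share was 18.3%. Among interactions called in all 3 replicates, the strongest of HEY2 had a mean score of 33.4, above 98.4% of the 48209 such interactions in the series, and those of JAG1 (23.8) and HES1 (20.4) were above 96.2% and 94.4%. The strongest of HEY1 (13.1) was above 82.7%, that of JAG2 (8.14) above 47.5% and that of NOTCH3 (6.02) above 9.16%. The median mean score over all such interactions was 8.32. Each of these places is that of the highest among a gene's own interactions in all 3 replicates, from 33 for JAG1 to 2 for NOTCH3. The series values are single interactions, so a gene with more interactions tends to be placed higher for that reason alone. The places therefore do not compare the genes on equal terms. Over interactions shared by a pair of replicates, Spearman's rho between the members' scores was 0.76 (replicates 1 and 2, 86 interactions), 0.77 (1 and 3, 93) and 0.87 (2 and 3, 87). These correlations describe interactions that share promoters and fragments.

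Nearly all reproducible contacts lay on 1 side. Relative to the direction of transcription, 75 of the 77 interactions called in all 3 replicates ran upstream, 97.4% (91.0 to 99.3). Over promoter fragments of the series whose coding starts lie on 1 strand, 48.1% of such interactions did. The share was 95.5% without JAG1 and 91.7% without JAG1 and HEY2. The 2 exceptions were both of HES1. The 77 come from 6 promoters, and PIRs of 1 promoter tend to share a side, so they are not 77 independent units. Over calls in any replicate, upstream and downstream counts were 51 and 0 for JAG1, 29 and 4 for HEY2, and 19 and 2 for HES1. They were 15 and 0 for HEY1, 14 and 0 for NOTCH3, and 16 and 19 for JAG2. NOTCH1 had 1 and 3, HEYL 1 and 1, and DLL4 0 and 1. None of the 178 interactions reached into the gene's own body, which for HES1 lies wholly inside its promoter fragment. None joined 2 of the 9 promoters, but each of these lies on a different chromosome, so only a contact between chromosomes could have. A series share was computed for neither count. The interval between promoter and PIR held a protein-coding gene start in 8 of the 77, 10.4% (5.36 to 19.2), against 73.2% of same-chromosome interactions in all 3 replicates over the series. Without JAG1 and HEY2 it was 7 of 24, 29.2%. PIRs that overlapped no annotated gene made up 37 of the 77, 48.1% (37.2 to 59.0), beside 24.7% of PIRs in the series, but 34 of these 37 belonged to JAG1 and HEY2. The median distance was 416 kb over all members' interactions and 443 kb over those in all 3 replicates, beside 716 kb and 395 kb for the series. Interactions in all 3 replicates spanned from 100.0 to 868 kb. By contrast, 11 interactions spanned more than 10 Mb or joined another chromosome (JAG2 4, NOTCH3 3, HEY2 2 and HEYL 2), with scores from 5.17 to 11.3, and each was called in 1 replicate alone. The series shares of such contacts, and of those called in 1 replicate, were not computed. Neither count can be read as particular to these genes.

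JAG1 encodes the ligand Jagged1, whose loss is known to cause Alagille syndrome. Its fragment, chr20:10652126-10657723, holds 1 of 9 annotated JAG1 starts and the start of an uncharacterised lncRNA, ENSG00000270792, so their contacts cannot be told apart. All 51 PIRs lay upstream, from 352 to 876 kb away, and no protein-coding gene overlapped any of them or started in between. In a stretch of 190.3 kb, chr20:11087577-11277908, 46 of 71 HindIII fragments were called, 32 of them in all 3 replicates. The strongest PIR, chr20:11252332-11254418 at 598 kb, scored 21.55, 25.37 and 24.5 in the 3 replicates. It lies in the body of the lncRNA ENSG00000230990. Its neighbour chr20:11246883-11252331 scored 20.1, 18.09 and 16.59, below it in every replicate. A separate summit stood at chr20:11174169-11175326, 520 kb away and outside any annotated gene, with 19.59, 15.63 and 18.52. These values overlap those of the neighbour just named. The fragment chr20:11226440-11228796, which lies between the summits, was lower than both in each replicate, at 7.34, 6.08 and 6.95. Between 515 and 548 kb, 14 neighbouring fragments in an unbroken run of 35.8 kb were each called in all 3 replicates, the longest such run of any member.

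**Figure D3:**
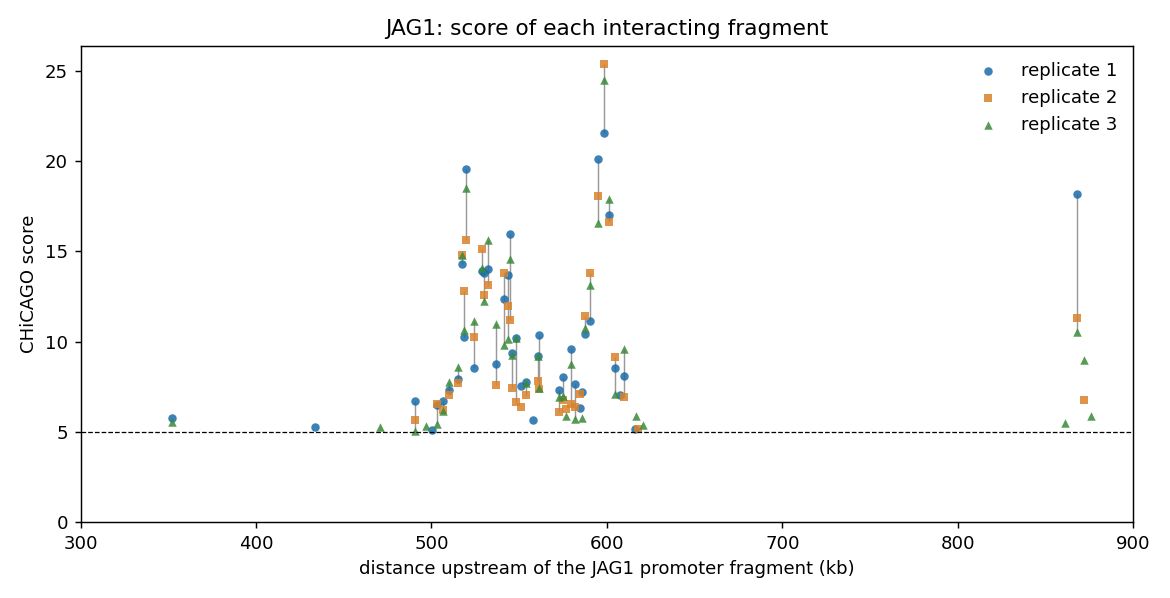
CHiCAGO score (y axis) of each PIR of the JAG1 promoter against its distance upstream (x axis, kb) in replicates 1 to 3; grey lines join replicates of PIRs called in all 3, and the dashed line is the calling threshold of 5. Summits are seen near 520 and 598 kb in every replicate, and a separate group lies from 861 to 876 kb.

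The most distant JAG1 contact seen in all 3 replicates, chr20:11520950-11524247 at 868 kb, scored 18.19, 11.32 and 10.52, with replicate 1 well above the other two. This PIR was also called in all 3 replicates with the promoter fragment of MKKS and SLX4IP (16.28, 16.03 and 19.2), which lies beyond JAG1 at 1109 kb from it, and with that of ANKEF1 (5.77, 5.64 and 5.06). The strongest JAG1 PIR at 598 kb was called with the MKKS and SLX4IP fragment in replicates 2 and 3 alone, at 6.92 and 6.05. The nearest JAG1 contact was with the promoter fragment of LINC02871, 352 kb away, at 5.78 in replicate 1 and 5.54 in replicate 3, and it was not called in replicate 2.

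JAG2, the other Jagged ligand, differed in layout. Its fragment, chr14:105630619-105648563, is 17.9 kb long and also holds starts of NUDT14, a nucleotide-sugar hydrolase gene, and of a lncRNA. The PIRs lay on both sides, 16 upstream and 19 downstream, mostly inside genes. Upstream, in chr14:105690793-105824699, 14 of 19 fragments were called, over BRF1, BTBD6 and PACS2. The strongest, chr14:105751609-105761299 in BRF1 (a subunit of the RNA polymerase III initiation factor) at 117 kb, scored 8.09, 8.72 and 7.61. The next, chr14:105821420-105822721 in PACS2 at 182 kb, scored 6.56, 9.77 and 7.84, and their values overlap. The third, chr14:105734916-105744832 at 100.3 kb in BRF1, scored 6.04, 6.98 and 6.06. The 4 interactions in all 3 replicates were all in this upstream stretch, the farthest at 184 kb (6.02, 5.87 and 5.91). Downstream, over AHNAK2 and PLD4 among others, 11 of 27 fragments in chr14:105347868-105526213 were called, 10 in replicate 1, 1 in replicate 2 and 6 in replicate 3, and none in all 3. The contact with the shared promoter fragment of BRF1 and BTBD6 at 64 kb was called in replicates 2 and 3, at 6.63 and 5.69.

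DLL4 had a single PIR, chr15:41310160-41314569 in INO80, a chromatin remodeller gene, 93 kb downstream. It scored 7.48 in replicate 1 and 5.29 in replicate 2 and was not called in replicate 3. The same PIR was called with the promoter fragment of VPS18 in all 3 replicates.

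HEY2 is a transcriptional repressor of the HES and HEY family and had the highest score of any member. Its fragment, chr6:126066736-126072244, holds both annotated HEY2 starts and that of its antisense RNA HEY2-AS1. The strongest PIR, chr6:125633063-125635716, lies 435 kb upstream, overlaps no annotated gene, and scored 32.42, 34.08 and 33.57. The highest score of any other HEY2 PIR in any replicate was 21.23. The next was chr6:125619175-125633062, beside it, which holds the promoter of HDDC2 (a gene of the HD-domain family) and scored 15.48, 16.48 and 21.23. Then came chr6:125652393-125653829 at 416 kb, with 13.49, 14.94 and 18.29, which overlap the values of the HDDC2 fragment. Together with their neighbours they formed a block, chr6:125615230-125704001, in which 23 of 25 HindIII fragments were called and 17 were called in all 3 replicates.

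**Figure D4:**
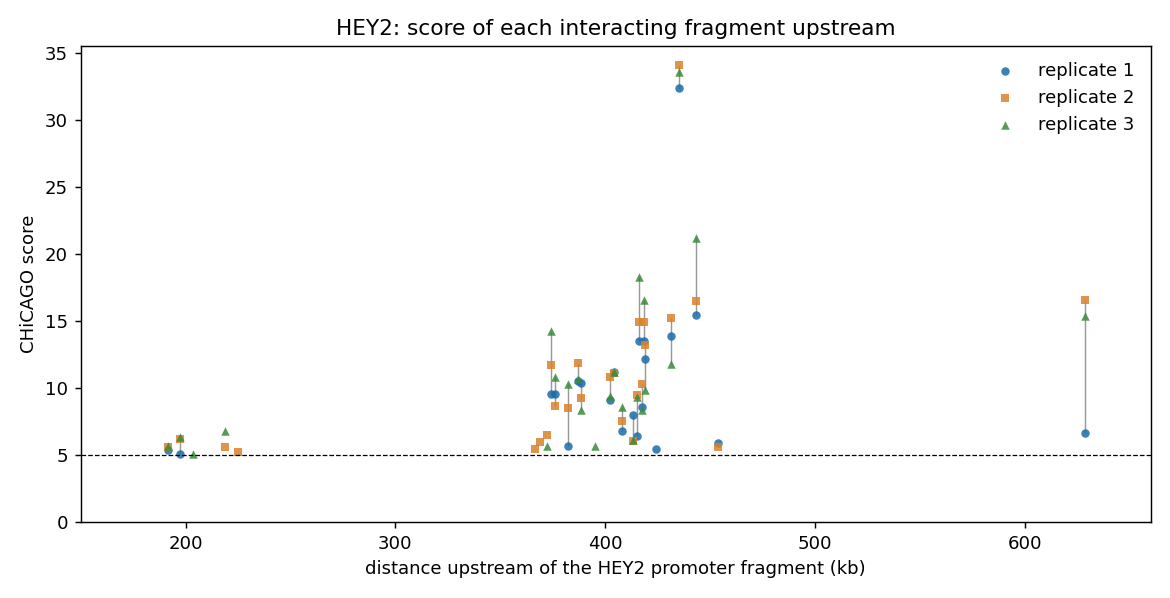
CHiCAGO score (y axis) of each PIR of the HEY2 promoter against its distance upstream (x axis, kb), out to the TPD52L1 fragment at 629 kb, in replicates 1 to 3; grey lines join replicates of PIRs called in all 3, and the dashed line is the threshold of 5. The PIR at 435 kb stands between 32.42 and 34.08, above all others, in a block from 367 to 454 kb.

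Other HEY2 contacts were weaker or less even. The promoter fragment of TPD52L1, chr6:125440071-125441130 at 629 kb, was the most distant called in all 3 replicates. It scored 6.65, 16.56 and 15.39, a ratio of 2.49 between the highest and lowest replicate and the widest among the members' 77 interactions in all 3. A captured fragment without an annotated start, chr6:125695101-125695613 at 374 kb, scored 9.53, 11.72 and 14.23. A second group of 5 PIRs lay between 192 and 225 kb upstream, 2 of them in all 3 replicates, chr6:125872108-125872392 (5.12, 6.23 and 6.38) and chr6:125876898-125879044 (5.38, 5.64 and 5.71). The fragments chr6:125682337-125691546 (5.72, 8.53 and 10.32) and chr6:125691547-125695100 (9.6, 8.64 and 10.85) are paired in the study's lists with the VISTA enhancer mm762. That list was drawn up on these samples, so the match is no independent evidence.

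The strongest HEY2 PIR was not exclusive to HEY2. In all 3 replicates it was also called with the promoter fragments of NCOA7 (21.95, 9.93 and 11.13), HINT3 (11.26, 8.78 and 11.29), TRMT11 (9.92, 6.02 and 7.03) and RSPO3 (12.57, 10.28 and 6.53). The HEY2 score was above each of these in every replicate. The HDDC2 fragment was called with the same 4 promoters in all 3 replicates, where NCOA7, a nuclear receptor coactivator gene, scored 23.8, 18.29 and 24.56 and stood above HEY2 in each replicate. Of the 20 HEY2 interactions in all 3 replicates, 9 had a PIR that was called with at least 1 other promoter fragment in some replicate. By the same count HES1 had 9 of 10, JAG2 4 of 4, NOTCH3 2 of 2, HEY1 2 of 8 and JAG1 7 of 33. The share over the series was not computed.

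HES1, the classical Notch target, had its fragment at chr3:193850191-193857559. It holds both HES1 starts and that of the lncRNA ENSG00000289385. The strongest PIR was the short fragment of 229 bases shown above, 351 kb upstream in no annotated gene, which scored 21.64, 20.97 and 18.71. It stood above every other HES1 PIR in each replicate. Flanking fragments were lower, with 5.59, 8.48 and 8.37 on the far side and 8.37, 7.17 and 6.18 on the near side. A separate group lay from 468 to 479 kb upstream in OPA1, a mitochondrial fusion gene, where 8 of 9 fragments were called and 4 were called in all 3 replicates. Its highest, chr3:193383636-193383830, scored 12.71, 7.97 and 9.83, and its most distant in all 3 replicates, chr3:193380500-193380745 at 473 kb, scored 9.97, 9.66 and 6.95. The PIR chr3:193518994-193520290 at 334 kb scored 9.07, 11.52 and 8.35.

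HES1 alone had downstream contacts in all 3 replicates. They were 2 adjoining fragments in LINC00887, at 177 kb (5.96, 5.01 and 5.41) and 180 kb (6.83, 5.96 and 5.86), all close to the threshold. The strongest HES1 PIR was also called with the promoter fragment of LINC02924, which lies 346 kb from that PIR and thus a few kb from the HES1 fragment, at 22.62, 16.42 and 15.58. The values overlap those of HES1. In OPA1, the PIR at 470 kb with the highest score was called in all 3 replicates with GP5, a platelet glycoprotein gene (9.42, 16.99 and 13.07), and with LINC02924, CPN2 and LRRC15.

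HEY1 had a compact layout. Its fragment, chr8:80675273-80681488, holds all 14 annotated HEY1 starts and that of LINC01607. All 15 PIRs lay upstream, between 166 and 287 kb, inside MRPS28 (a mitochondrial ribosomal protein gene) and TPD52. The highest mean score, at chr8:80939464-80939652 at 261 kb, came from 11.27, 13.69 and 14.19. Its neighbours at 259 kb (6.79, 13.89 and 12.09) and 255 kb (12.5, 7.93 and 7.05) varied in opposite ways between replicates, and their values overlap with those of the first. From 251 to 268 kb, 7 fragments in an unbroken run of 20.3 kb were called in all 3 replicates. One of them is the MRPS28 promoter fragment at 263 kb, with 6.95, 7.9 and 6.56. The most distant in all 3, at 268 kb, scored 6.21, 5.69 and 5.26.

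HEYL had 3 interactions, all called in replicate 2 alone. They were with the promoter fragment of PPIE at 49 kb (5.99), with a fragment in SLC66A1 20451 kb away (7.22) and with a fragment on chromosome 17 in IKZF3 (6.09). No interaction of HEYL was called in replicates 1 and 3.

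**Figure D5:**
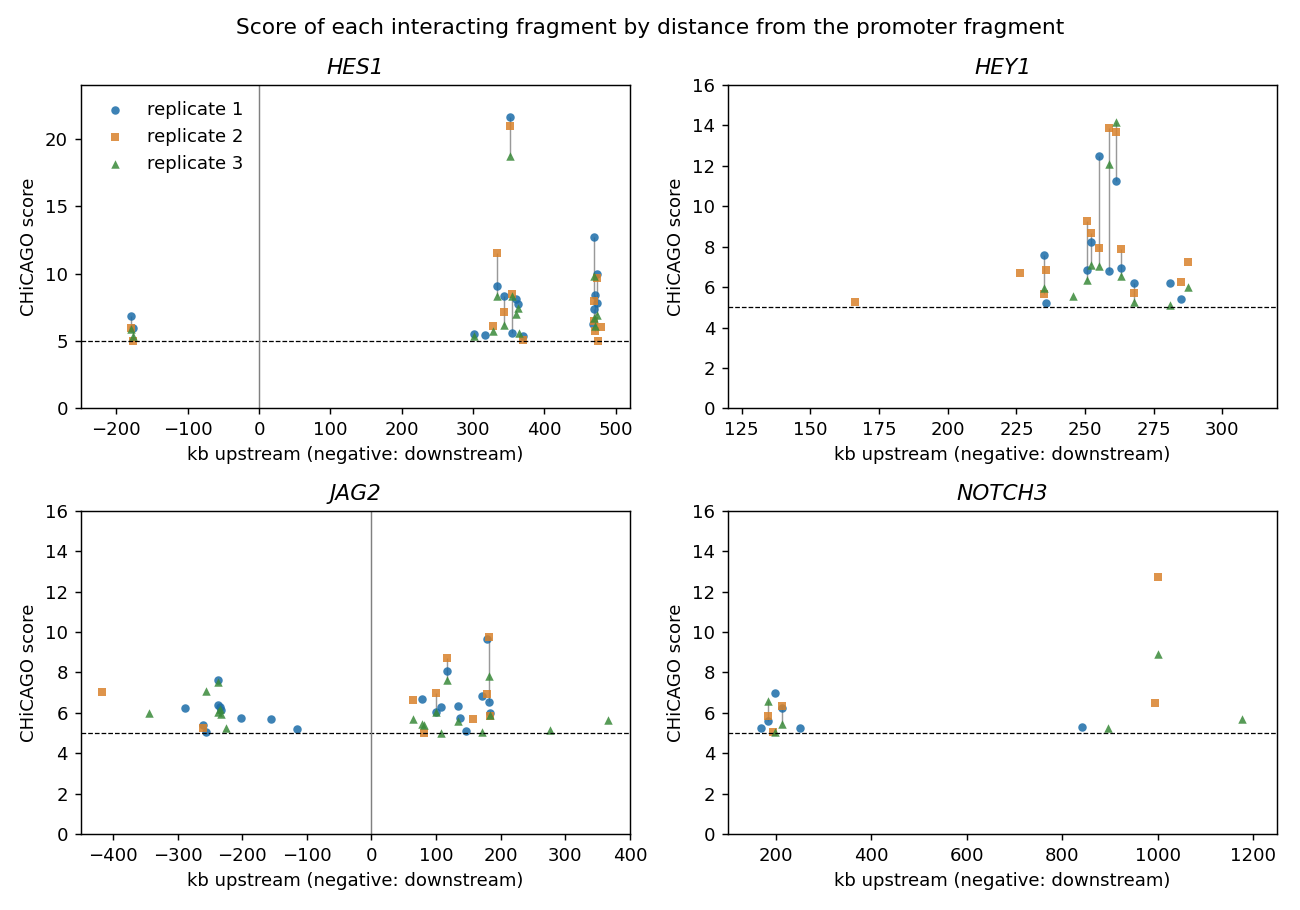
CHiCAGO score (y axis) of each PIR against distance from the promoter fragment (x axis, kb, positive upstream and negative downstream) for HES1, HEY1, JAG2 and NOTCH3 in replicates 1 to 3; interactions beyond the plotted ranges are left out, grey lines join PIRs called in all 3, and the dashed line is the threshold of 5. The HES1 panel has 1 PIR at 351 kb near 20.4, HEY1 a group around 261 kb, JAG2 PIRs on both sides, and NOTCH3 low scores from 170 to 252 kb. The NOTCH3 panel also has PIRs from 841 to 1175 kb, the highest at 1000 kb with 12.7 and 8.89 in replicates 2 and 3.

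Among the receptors, NOTCH3 had more interactions than 73.9% of promoter fragments and NOTCH1 had fewer than the median. The NOTCH3 fragment, chr19:15307614-15312187, holds 2 of 6 annotated starts, and all 14 of its PIRs were upstream. The 2 in all 3 replicates were promoter fragments, that of AKAP8 (chr19:15489199-15497116 at 183 kb, 5.62, 5.87 and 6.57) and that of AKAP8L (chr19:15516830-15530487 at 214 kb, 6.26, 6.33 and 5.44). Both genes are named after anchoring proteins for protein kinase A. The values of the 2 PIRs overlap, and all lie near the threshold. The highest NOTCH3 scores were with the promoter fragment of AP1M1, a clathrin adaptor gene, 1000 kb away, at 12.7 and 8.89 in replicates 2 and 3, and it was not called in replicate 1. The AKAP8 fragment was called in all 3 replicates with the promoter of EPHX3 as well, at 5.79, 5.84 and 6.32.

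The NOTCH1 fragment, chr9:139439530-139442559, holds 8 of 16 annotated NOTCH1 starts and those of MIR4674 and NALT1. All 4 of its partners were promoter fragments. That of INPP5E, 108 kb downstream, was called in replicates 2 and 3 at 8.06 and 5.03. Those of ENTR1 and PMPCA at 138 kb (6.1, replicate 1), SEC16A at 63 kb (5.87, replicate 3) and AGPAT2 at 142 kb (5.58, replicate 1) were called once each.

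NOTCH2 has 11 annotated transcripts, and none of their starts lay in a captured fragment with a call, so no promoter contact of NOTCH2 could be described. The fragments of 4 of its internal starts were listed as partners of other promoters. That at chr1:120479284-120480472 was called with the ADAM30 promoter fragment, 44 kb away, at 5.39, 5.1 and 6.26. The same 4 fragments were also listed with a fragment holding RNU2-38P, over 24 Mb away on the same chromosome, in some cases with the identical score of 27.46. Scores with it ran from 11.69 to 155.95, and chr1:120529299-120530415 had 20.99, 155.95 and 27.46 in replicates 1 to 3. All 4 were listed as well with the PDE4DIP promoter fragment, also over 24 Mb away, at 7.97 to 21.61. NOTCH2 is known to have near-identical partial copies in that distant region, and the part of shared sequence in these calls was not tested.

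The rest of the pathway was described through 38 further genes. Of these, 32 had a promoter fragment with a call. An interaction in all 3 replicates was found for 19 of those 32 (59.4%, 42.3 to 74.5), beside 51.9% of all promoter fragments. RBPJ, NUMB, APH1B, DTX2, ITCH and HES2 had no such fragment. Together the 32 genes had 335 interactions, 101 of them in all 3 replicates (30.1%, 25.5 to 35.3, beside 24% of the series). Much of the 101 came from ADAM10 (23), MAML3 (20) and MAML2 (14), and the share without these genes was not computed. Receptor cleavage genes had 35 of 97 interactions in all 3 replicates and nuclear cofactors 41 of 103, whereas trafficking and ubiquitin ligase genes had 4 of 37 and further HES and NRARP targets 2 of 16. Single genes carried the higher counts: without ADAM10 the cleavage genes had 12 of 59 (20.3%), and without MAML2 and MAML3 the nuclear cofactors had 7 of 28 (25.0%). The most contacted were the coactivators MAML3 (39 interactions, 20 in all 3 replicates) and MAML2 (36 and 14), the receptor-cleaving protease ADAM10 (38 and 23) and the receptor NOTCH4 (36 and 10, over 2 fragments). DTX4 and the glycosyltransferase gene POGLUT1 followed with 18 each, of which 0 and 5 were in all 3 replicates. The ligand DLL1 had 15 and 3.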

How the data were processed

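The deposited promoter capture Hi-C calls of the 3 hESC-CM replicates were analysed without change. Each line gives a pair of HindIII fragments and a CHiCAGO score to 2 decimals, with no header. The authors mapped reads to GRCh37 with HiCUP and scored them with CHiCAGO, per replicate and on the merged replicates. No calls under a score of 5 were analysed here, and read depth per replicate is not given in these files.

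Transcript starts and gene bodies came from GENCODE release 44 lifted to GRCh37. All 187 fragments of the members and their partners matched HindIII fragments of that genome. Calls of all replicates were pooled as their union, and a pair was counted once whichever fragment came first. A stretch of PIRs was a group of at least 3 with gaps of at most 50 kb between midpoints. Its ends were set at called fragments, which raises the called share within it. That share was not computed for stretches of other promoters in the series. Intervals are 95% Wilson intervals and cover counting error only. With 1 group there was no test between conditions. Promoter windows came from RefSeq (GRCh38.p14), for 9 of the 10 genes. PIR sequences other than those of HES1 and JAG1 are not reported here.

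All 10 genes are named. For each, the text gives the 3 strongest interactions in all 3 replicates, the most distant of these, and those in at least 2 replicates with a promoter fragment. Genes at the other end and other fragments singled out were chosen after their values were seen. The members, the pathway list and the alternatives were chosen with earlier results of these data known. The functions were tested on simulated calls with known answers. Analyses ran in Python 3.11.15, using numpy 2.4.6, pandas 2.3.3, scipy 1.17.1 and matplotlib 3.10.9.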

Additional observations from a re-analysis of the deposited data

Results flagged for a closer look

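The calls made on the merged replicates lie outside the comparisons above. There, 32 of the 177 listed interactions of the member promoters were ones that no single replicate had called. HEY2 had 11 of them (scores 5.02 to 7.05, 182 to 400.1 kb away), and JAG1, HEY1 and DLL4 had 5 each, HES1 4 and JAG2 2. The DLL4 ones scored 5.2 to 5.81 and lay from 86 to 99 kb downstream in INO80. They adjoin the single PIR of DLL4 called in replicates 1 and 2, which scored 8.71 on the merged replicates, so that 6 neighbouring fragments were listed there. Each of the 6 was also called with the promoter fragment of VPS18 in every single replicate. Merged scores rest on the same reads as the replicate scores, and no second merged set exists against which their spread could be measured. The share of such interactions over the whole series was not computed, so the 32 cannot be read as particular to these genes.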

How the results depend on the processing

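The count of 178 interactions stayed within 1.5 times its value except at stricter thresholds: 90 at a score of at least 7 and 42 at 10. The share called in all replicates, 43.3%, was 48.9% at 7 and 54.8% at 10 (all interactions of the series: 27.2% and 30.6%), 56.1 to 58.1% when 1 replicate was left out and both others had to agree, 59.6% when PIRs within 5 kb counted as the same, and 47.5% within 1 Mb. It was 34.6% without JAG1 and 25.8% without JAG1 and HEY2, alternatives chosen after seeing the data, as were all those on the upstream share. The median distance, 416 kb, was 474 kb at a score of 7, 518 kb at 10, 367 kb in the merged calls, 406 to 415 kb with 1 replicate left out, 328 kb without JAG1 and 260 kb without JAG1 and HEY2. The top 20% share, 36.0%, was 26.2% at a score of 10, 27.6% without JAG1 and 18.3% without JAG1 and HEY2. The upstream share, 97.4%, was 92.5 to 96.6% with 1 replicate left out and 91.7% without JAG1 and HEY2. The share of PIRs outside genes, 48.1%, was 61.4% at 7, 65.2% at 10, 41.9 to 46.0% with 1 replicate left out, 39.5% in the merged calls, 74.0% against protein-coding genes alone, 40.9% without JAG1 and 12.5% without JAG1 and HEY2. The causes were not tested, beyond the fewer calls or genes that each alternative holds. Series values were recomputed only for the share called in all replicates at scores of 7 and 10. The other shifts therefore cannot be set beside the series or read as particular to these genes. The number of genes with an interaction in all replicates, 6, ranged from 4 at a score of 10 to 7 without replicate 1 or 3. In the merged calls, which have no replicates, 9 genes had any call. Of 81 counts for single genes with a promoter fragment, 59 stayed within 1.5 times. Among the others, NOTCH3 fell from 14 to 5 and JAG2 from 35 to 23 in the merged calls, DLL4 rose from 1 to 6, and HEYL went to 0 without replicate 2. NOTCH1 had 2 without replicate 1. No paired analysis was possible because there is 1 group. Read depth is not known, so a contact not called may lie below the threshold for want of reads.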
